A study of Drosophila melanogaster with 8 samples.

Results

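The centromere-proximal ends of chromosome arms 2L, 3L, 3R and X were examined in maps of phosphorylated p38 (P-p38) on the chromatin of Drosophila S2 cells. An arm end was taken as everything from 22 Mb on 2L, from 23 Mb on 3L, up to 4.2 Mb on 3R and from 22 Mb on X of genome build dm6. A peak was a member when its summit, the position of highest enrichment, lay in 1 of these 4 intervals. They held 1952 of the 17927 peaks in all lists, and 10857 peaks lay on the rest of the same arms.

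P-p38 was mapped by chromatin immunoprecipitation and sequencing (ChIP-seq) in wild-type S2 cells, an embryonic line with haemocyte-like properties. Treated cells had been exposed to 10 mM H2O2 for 30 min at 25 °C, and control cells had received medium alone. Each group had 2 immunoprecipitated libraries, each with its own peak list, and 2 input libraries without a peak list, which were not analysed here. The comparison asked where P-p38 was found on chromatin with and without oxidative stress. Nothing in the labels says that replicates were separate cultures, so the spread between them may be technical. Read depth is unknown, and the lists held 4314 and 2988 peaks on the 6 arms in control replicates 1 and 2, and 6434 and 4019 in H2O2 replicates 1 and 2.

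The chromosome ends next to fly centromeres are pericentric heterochromatin. This is compact chromatin rich in transposon remnants and satellite repeats and marked by methylation of histone H3 at lysine 9, which heterochromatin protein 1 binds. Genes there are sparse, and many have very long introns filled with repeats, yet a number of essential genes, among them genes of ribosomal proteins, lie and are transcribed there. p38 is a MAP kinase that becomes phosphorylated under oxidative, osmotic and heat stress, and its active form can be recruited to chromatin. Short reads from repeats can match several places in the genome, and no source used here says how such reads were treated. The part of repeats in the values that follow was not tested.

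The arm ends carried a larger share of the peaks in both H2O2 lists than in either control list. They held 284 peaks in control 1, 170 in control 2, 1047 in H2O2 1 and 451 in H2O2 2. As a share of the peaks on the 6 arms this was 6.58% (Wilson 95% interval 5.88 to 7.36) in control 1 and 5.69% (4.91 to 6.58) in control 2. The share was 16.3% (15.4 to 17.2) in H2O2 1 and 11.2% (10.3 to 12.2) in H2O2 2. All Wilson intervals given here cover counting error only. The groups did not overlap, with a mean of 6.14% ± 0.632 (SD, n = 2) in control and 13.7% ± 3.57 (SD, n = 2) after H2O2, a difference of 7.61 percentage points. An exact two-sided permutation of libraries gave p = 0.333, the smallest p that the 6 arrangements of 2 against 2 libraries allow, so no comparison of groups here could pass 0.05. The order of the groups is therefore given as a description throughout. The limits of the arm ends had been set by eye from these same peak lists. The separation of the groups, here and in the contrasts below, is therefore not independent of that choice.

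**Figure D1:**
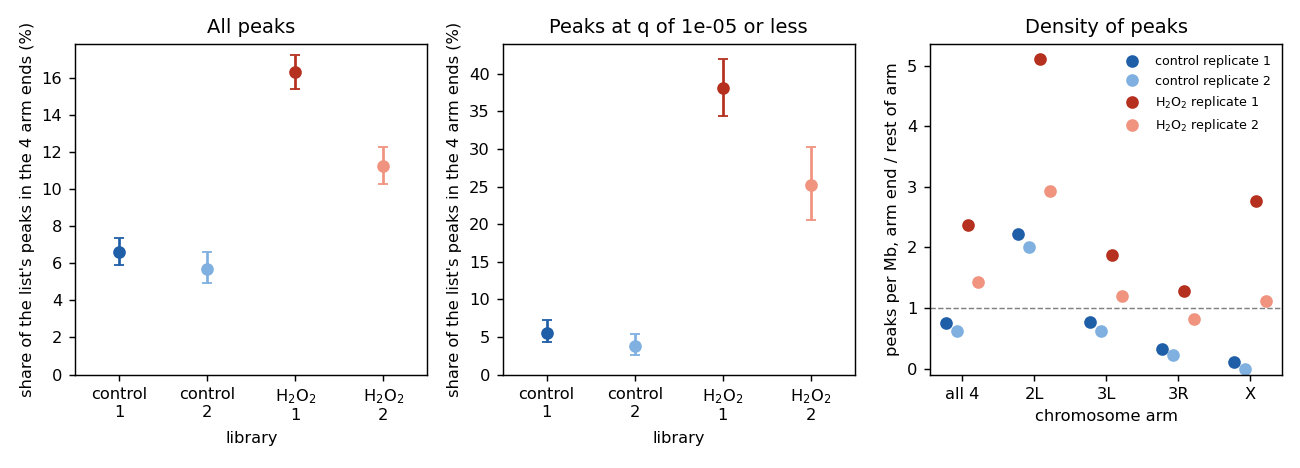
Share of each library's peaks in the 4 arm ends, in percent of its peaks on the 6 arms with Wilson 95% intervals as bars, for all peaks (left) and for peaks at q of 1e-05 or less (middle), and peaks per Mb of the arm end divided by peaks per Mb of the rest of the arm (right, dashed line at 1). Both H2O2 libraries lay above both control libraries in each panel and at each end, at 16.3% and 11.2% against 6.58% and 5.69% for all peaks. On X the rest of the arm held fewer peaks in both H2O2 libraries than in either control library.

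The separation in share was wider among the peaks with the strongest statistical support. Of the peaks at a deposited q of 1e-05 or less, 52 of 931 lay in the arm ends in control 1 (5.59%) and 29 of 767 in control 2 (3.78%). In H2O2 1 they were 238 of 624 (38.1%) and in H2O2 2 they were 77 of 306 (25.2%). The mean was 4.68% ± 1.28 (SD, n = 2) in control and 31.7% ± 9.18 (SD, n = 2) after H2O2, again without overlap. On the rest of the 4 arms, peaks at this q numbered 666 and 581 in control and 164 and 152 after H2O2. The wider separation therefore also reflects fewer such H2O2 peaks there. In the ends the mean number of peaks at this q after H2O2 was 3.89 times that in control, against 3.30 times for all arm-end peaks.

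Per length of chromosome, the arm ends went from thinner than the rest of the arms in control to denser in H2O2. The ends span 12.3 Mb up to the outermost peak or gene, and the rest of the 4 arms spans 94.9 Mb. Control 1 had 23.02 peaks per Mb in the ends and 30.8 in the rest, and control 2 had 13.8 and 22.2. H2O2 1 had 84.9 peaks per Mb in the ends and 35.7 in the rest, and H2O2 2 had 36.5 and 25.7. The density of the ends relative to the rest was thus 0.748 and 0.619 in the control libraries and 2.37 and 1.42 in the H2O2 libraries (exact permutation p = 0.333, 2 against 2). Peaks covered 0.780% and 0.537% of the arm-end length in control, and 3.12% and 1.14% of it after H2O2. Over the rest of the arms the covered share was 1.93% and 1.31% in control and 1.38% and 0.927% after H2O2.

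All 4 arm ends had more peaks in both H2O2 lists than in either control list, from different starting levels. The 2L end, 1.51 Mb long, held 90 and 61 peaks in control and 285 and 123 after H2O2, a ratio of means of 2.70. It was already denser than the rest of 2L in control, by 2.23 and 2.01 times, and by 5.10 and 2.93 times after H2O2. The 3L end, 5.09 Mb long, held 137 and 82 peaks in control and 495 and 205 after H2O2, a ratio of 3.20. The 3R end, 4.2 Mb long, held 54 and 27 peaks in control and 231 and 110 after H2O2, a ratio of 4.21. It was the sparsest of the 3 autosomal ends in control, at 0.316 and 0.229 times the density of the rest of 3R, against 1.28 and 0.824 times after H2O2. On 3L the relative density was 0.770 and 0.611 in control and 1.88 and 1.20 after H2O2. H2O2 1 weighed on the size of these ratios of means, which without it were 1.63 on 2L, 1.87 on 3L and 2.72 on 3R.

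The X end, 1.54 Mb long, was almost empty in control cells. It held 3 peaks in control 1, none in control 2, 36 in H2O2 1 and 13 in H2O2 2, or 0.109, 0, 2.77 and 1.11 times the density of the rest of X. The rest of X itself held 393 and 279 peaks in control and 186 and 167 after H2O2. The relative densities therefore also reflect fewer H2O2 peaks on the rest of X. The control 1 peaks lay at X:22825219-22825554 in fog, which encodes a secreted ligand of gastrulation, and outside coding genes at X:23111723-23112002 and X:23390074-23390274. Their q on the −log10 scale was 1.93, 10.5 and 2.55. None of the H2O2 peaks of the X end had its summit in a coding gene. The end holds 59 coding genes, which take up 20.6% of its length. The H2O2 peaks fell into clusters rather than along the whole end: the 0.5 Mb next to the limit held 15 and 10 of them, the next 0.5 Mb none, and the 0.5 Mb after that 20 and 3.

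The peaks near the limits of the intervals were counted on both sides, since the limits are round positions set by eye from the peak lists. In the first 0.5 Mb inside the 2L limit the lists held 30 and 26 control and 68 and 35 H2O2 summits, and in the last 0.5 Mb outside it 28 and 16 control and 54 and 42 H2O2 summits. Inside the 3L limit they held 18 and 9 control and 26 and 13 H2O2 summits, and outside it 6 and 14 control and 9 and 4 H2O2 summits. The 0.5 Mb next to that one, further from the centromere, was rich in control summits, with 64 and 95 against 13 and 12 after H2O2. Inside the 3R limit there were 13 and 10 control and 35 and 13 H2O2 summits, against 21 and 17 control and 19 and 28 H2O2 summits outside. The contrast varied along the 3L end and did not grow steadily towards the centromere. From 2.5 to 3 Mb inside the limit the counts were 8 and 5 in control and 80 and 30 after H2O2, whereas from 4.5 to 5 Mb they were 11 and 12 in control and 24 and 8 after H2O2, with overlapping groups.

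**Figure D2:**
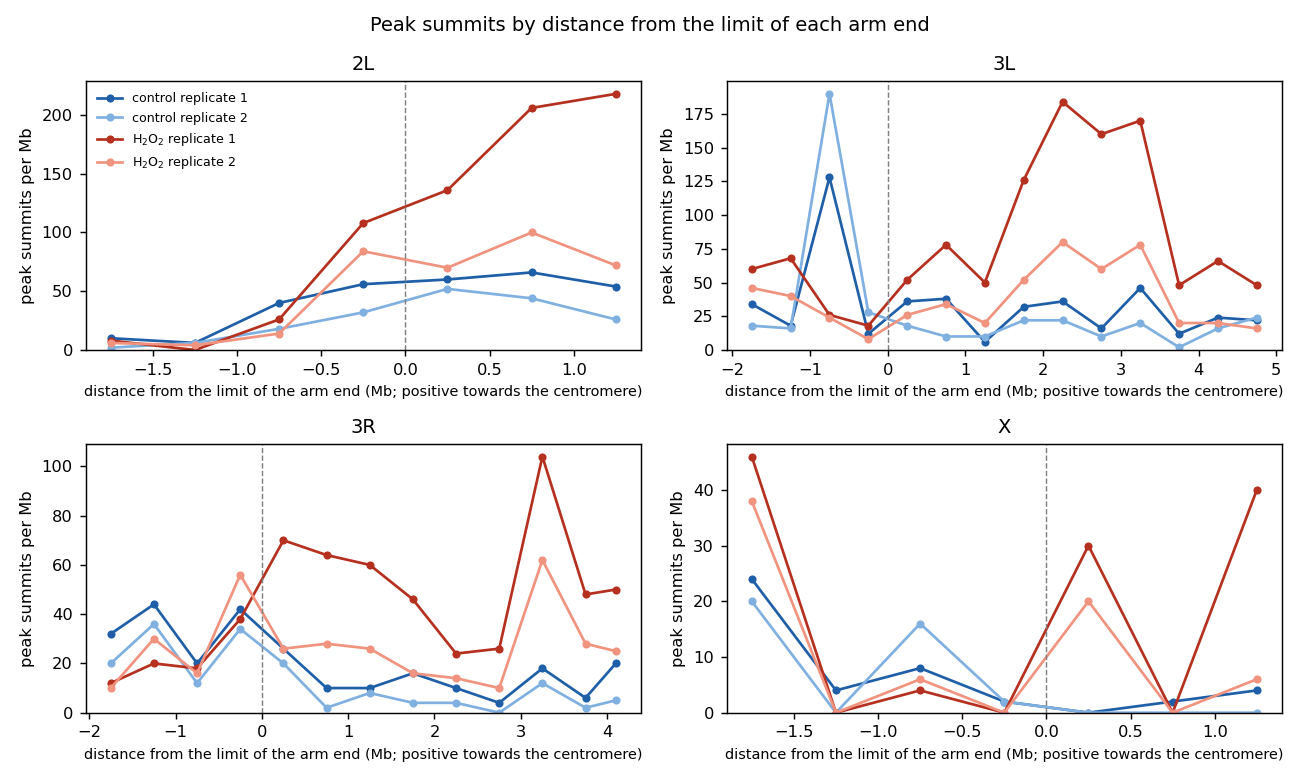
Peak summits per Mb, counted in bins of 0.5 Mb (the last bin is shorter on 3R), against the distance from the limit of each arm end in Mb, positive towards the centromere, with 1 line per library and a dashed line at the limit. Inside the 2L and 3R limits H2O2 1 stood above both control libraries in every bin, and on X the H2O2 summits stood in separate clusters.

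Over the 4 ends together, peaks of both groups were similar in width. Their median width was 271 bp in control 1 and 308.5 bp in control 2, and 294 bp in H2O2 1 and 258 bp in H2O2 2, so the groups overlapped (exact permutation p = 0.667). Elsewhere on the arms control peaks were broader, at 342 and 367 bp, than H2O2 peaks, at 293 and 272 bp. Peaks over 1000 bp wide made up 2.11% and 4.71% of arm-end peaks in control and 2.58% and 0.665% after H2O2. Elsewhere they made up 12.8% and 13.3% in control and 2.95% and 3.12% after H2O2. The broad control peaks of the arms were thus scarce at the ends.

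Within each list, the position of arm-end peaks in the ranking by strength differed between groups. The authors' fold enrichment is each peak's own value over an unknown background, and it was therefore turned into a percentile within its list. The median arm-end peak stood at percentile 48.8 and 39.5 in the control lists and at 62.5 and 63.3 in the H2O2 lists. On the rest of the arms the medians were 51.2 and 53.1 in control and 47.1 and 48.7 after H2O2. The median deposited q of arm-end peaks, on the −log10 scale, was 2.76 and 2.14 in control and 2.80 and 2.48 after H2O2, so that the groups were close and overlapped. Away from the ends it was 2.79 and 2.62 in control and 2.05 and 1.78 after H2O2. Peaks at q of 1e-05 or less made up 18.3% and 17.1% of arm-end peaks in control and 22.7% and 17.1% after H2O2, against 22.8% and 27.5% in control and 4.84% and 6.23% after H2O2 on the rest of the arms. The high percentiles after H2O2 came from the 3L end (64.5 and 61.4) and the 3R end (72.0 and 74.8) more than from the 2L end. There the medians were 54.9 and 45.4 against 43.8 and 43.9 on the rest of 2L. In control the medians were 40.4 and 35.7 at the 2L end, 49.8 and 40.1 at the 3L end and 53.3 and 62.3 at the 3R end. Of these, only the 3R end stood above the rest of its arm (48.2 and 48.1) in both control lists.

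**Figure D3:**
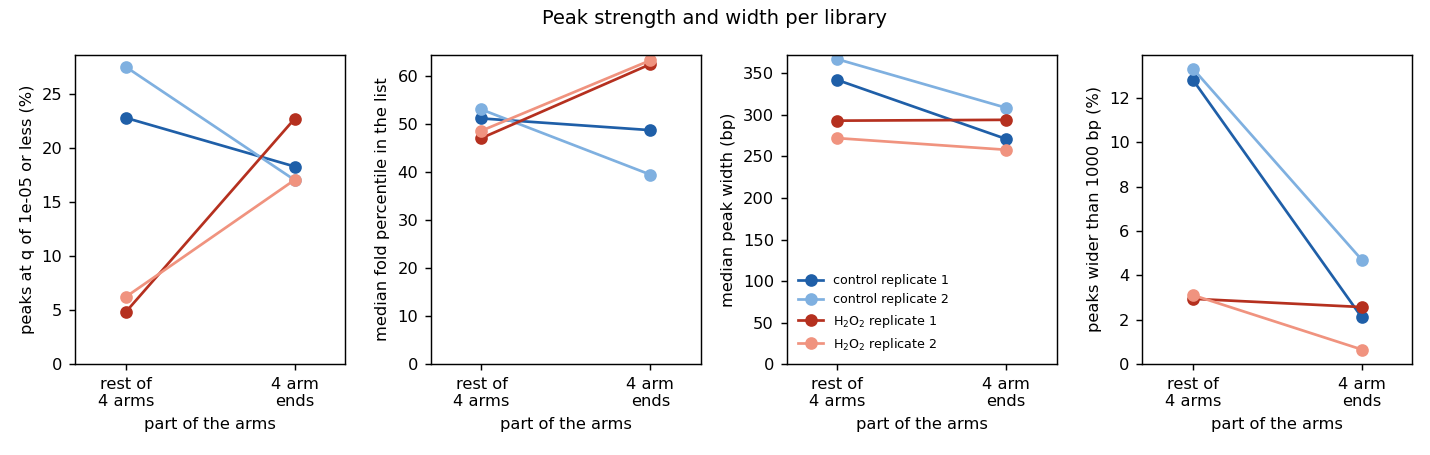
Values per library on the rest of the 4 arms (left in each panel) and in the 4 arm ends (right), joined by a line: peaks at q of 1e-05 or less in percent, median percentile of fold within the list, median width in bp, and peaks over 1000 bp in percent. The median percentile in the ends was 62.5 and 63.3 in the H2O2 lists against 48.8 and 39.5 in the control lists.

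Replicates shared fewer peaks in the arm ends than elsewhere in control, and more after H2O2. A peak was counted as shared when it overlapped a peak of the other library by at least 1 bp. In the arm ends 19.4% of control 1 peaks were shared with control 2 and 31.2% of control 2 peaks with control 1, against 33.8% and 49.5% on the rest of the arms. Of the H2O2 1 peaks there 28.0% were shared with H2O2 2 and of the H2O2 2 peaks 68.1% with H2O2 1, against 23.2% and 32.5% on the rest. The direction from the smaller to the larger list has the higher share in each pair, and H2O2 1 covered 3.12% of the arm-end length against 0.537% to 1.14% in the other libraries.

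Control peaks of the arm ends overlapped H2O2 1 peaks more often than they overlapped those of their own replicate. Of the control 1 peaks in the ends, 57.7% overlapped an H2O2 1 peak and 34.5% an H2O2 2 peak, against 19.4% for control 2. Of the control 2 peaks, 38.2% overlapped an H2O2 1 peak and 31.2% an H2O2 2 peak, the latter equal to the share for control 1. On the rest of the arms the order was the converse, with 15.6% and 15.8% of control 1 peaks overlapping H2O2 1 and H2O2 2 peaks, against 33.8% overlapping control 2. In the other direction 15.4% and 6.21% of H2O2 1 peaks in the ends overlapped a peak of control 1 and control 2, close to the 15.6% and 8.85% on the rest. For H2O2 2 the shares were 22.6% and 12.0% in the ends and 23.2% and 15.8% on the rest. The length covered differed too. Peaks of H2O2 1, control 1 and control 2 covered 3.12%, 0.780% and 0.537% of the ends, and 1.38%, 1.93% and 1.31% of the rest. The part of this coverage in the order of the shares was not tested.

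**Figure D4:**
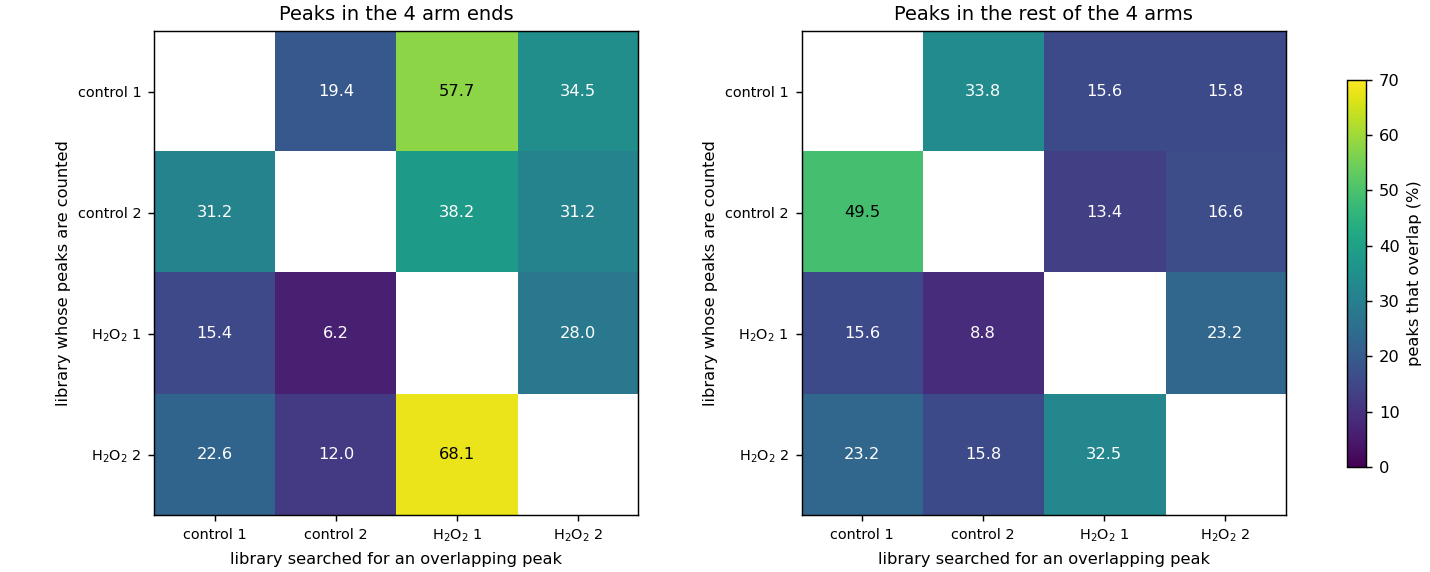
Peaks of the library on the vertical axis that overlapped a peak of the library on the horizontal axis by at least 1 bp, in percent by colour and number, in the arm ends (left) and on the rest of the same arms (right). In the ends 68.1% of H2O2 2 peaks and 57.7% of control 1 peaks overlapped an H2O2 1 peak, against 32.5% and 15.6% on the rest.

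Peaks of the 4 libraries were then merged into 1353 regions of the arm ends, of which 953 came from 1 library and 667 from H2O2 1 alone. H2O2-only regions, with a peak in each H2O2 library and none in control, numbered 178, or 13.2% (Wilson 95% interval 11.5 to 15.1), against 7.04% of all regions on the 6 arms. Control-only regions, the converse, numbered 17, or 1.26%, against 5.53% of all regions. A further 27 regions, 2.00%, were called in all 4 libraries, against 1.54% of all regions. Whatever the other group held, both control libraries were called in 51 regions, 3.77% against 8.83% of all regions, and both H2O2 libraries in 284, or 21.0% against 11.2%. On the rest of the same arms 5.73% of regions were H2O2-only and 6.91% control-only, a balance whose difference from that of the ends was not tested. Control-only regions were 7 on the 2L end and 10 on the 3L end. There were none among 300 regions of the 3R end and none among 40 of the X end. Taking 3 counts as the limit that a count of 0 allows, the share could be up to 1.0% and 7.5%, and the upper Wilson bounds were 1.26% and 8.76%. H2O2-only regions numbered 48, 84, 35 and 11 on the 2L, 3L, 3R and X ends. The H2O2-only count depended on the H2O2 library required, at 322 without H2O2 1 and 854 without H2O2 2.

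The H2O2-only regions lay mostly between coding genes, and the control-only regions mostly over them. Of the 178 H2O2-only regions 47, or 26.4%, overlapped a coding gene, 43 of them a gene of at least 100 kb. Of the 17 control-only regions 14, or 82.4%, overlapped a coding gene, only 2 of them a gene of that length. Among the 27 regions of all libraries 10, or 37.0%, overlapped a coding gene. For comparison, 566 of all 1353 arm-end regions, or 41.8%, overlapped a coding gene and 431 a gene of at least 100 kb, and 56.0% of the arm-end length lies between coding genes. Their median widths were 395 bp, 604 bp and 571 bp in that order. Exons, introns and untranslated regions were not separated, since the gene table used here gives gene bounds only.

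The strongest H2O2-only regions were narrow and intergenic, apart from 1 in lovit. They were ranked by the lower of their fold percentiles in the libraries of the class. The first, 223 bp wide at 3R:3767688-3767910, lay 15335 bp from CG41128 and had a −log10 q of 12.5 and 12.0 in the H2O2 libraries. The next lay at 3R:211247-211637 (10.2 and 11.2), 3L:27245560-27245806 (9.13 and 9.57) and 2L:22859204-22859472 (13.9 and 12.8). They were followed by 3L:26026552-26026837 (6.51 and 8.43) and, inside lovit, 3L:25522696-25522933 (9.38 and 7.73). The widest regions of the 3R and X ends belonged to this class too. The one on 3R, 1569 bp at 3R:3646805-3648373, lay 19115 bp from Alg-2, and the one on X, 1698 bp at X:22400257-22401954, lay 42273 bp from CG14621.

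By contrast the 4 strongest control-only regions lay on ribosomal protein genes. The region at 3L:27267168-27269447 covers RpL15 and had a −log10 q of 21.0 and 55.8 in the control libraries. At RpL10 (3L:23092167-23095565) the values were 18.0 and 55.5, and at RpL5 (2L:22533392-22536662) they were 18.2 and 31.0. The region at 2L:22246578-22247855, over RpL21 and its neighbour Nubpl, a gene whose human counterpart serves assembly of mitochondrial complex I, had 8.92 and 34.6. These genes encode proteins of the large ribosomal subunit. Control peaks covered 100% of RpL15 in both libraries, 78.0% and 100% of RpL10, 68.8% and 66.2% of RpL5, and 75.4% and 97.4% of RpL21, and in both H2O2 libraries peaks covered 0% of each. The RpL5 region, 3271 bp wide, was the widest of the 2L end. The remaining 2 of the 6 strongest control-only regions were weaker, in Marf1 at 2L:22353795-22354914 (3.34 and 20.5) and in CG40006 at 2L:22672462-22672814 (5.79 and 2.04).

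Regions found in all 4 libraries combined these patterns. The first by rank, 3L:23665545-23666741, lay in AGO3, an Argonaute protein of the piRNA pathway that silences transposons in the germ line, with a −log10 q of 5.85 and 6.94 in control and 3.78 and 2.70 after H2O2. The next, 3R:503423-503671, lay outside coding genes with 11.6 and 6.89 in control and 18.0 and 13.7 after H2O2. Other strong members of this class were 3L:24824218-24824555, 2L:22618173-22618736, 3L:26270625-26271073 and 3L:24888332-24888628, all outside coding genes. The widest region of the 3L end, 3589 bp at 3L:24123928-24127516, lay in Snap25, a SNARE protein of synaptic vesicle fusion, and was called in all 4 libraries.

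Summits were next assigned to the 147 coding genes of the arm ends. Genes of 100 kb or more numbered 10 and take up 34.3% of the arm-end length, and the stretches between coding genes take up 56.0%. Summits between coding genes numbered 155 and 71 in control and 674 and 292 after H2O2, or 54.6%, 41.8%, 64.4% and 64.7% of each library's arm-end summits. In the long genes there were 73 and 41 control summits and 327 and 146 H2O2 summits, or 25.7%, 24.1%, 31.2% and 32.4%. The 99 genes under 10 kb held 15 and 26 control summits (5.28% and 15.3%) and 11 and 5 H2O2 summits (1.05% and 1.11%). So the higher H2O2 counts lay between genes and in long genes, and the short genes had fewer summits in both H2O2 libraries than in either control library. A shift in the same direction was seen on the rest of the arms. There, summits between genes made up 8.08% and 5.55% in control and 27.1% and 22.5% after H2O2, and summits in genes under 10 kb 37.99% and 51.1% in control and 20.6% and 30.8% after H2O2. The length classes were chosen after the values had been seen.

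Myo81F, a gene of the myosin heavy chain family, spans 1965857 bp of the 3R end (3R:567076-2532932). It held 23 summits in control 1, 10 in control 2, 96 in H2O2 1 and 51 in H2O2 2. The groups did not overlap, with a mean of 16.5 ± 9.19 (SD, n = 2) in control and 73.5 ± 31.8 (SD, n = 2) after H2O2, a ratio of 4.45 (exact permutation p = 0.333). Per Mb this was 11.7, 5.09, 48.8 and 25.9 summits, slightly under the density of the whole 3R end, at 12.9, 6.43, 55.0 and 26.2. Myo81F thus carried no more summits than its length of 3R end would hold at the mean density. When the gene was divided into 4 parts of equal length, summits were most frequent in the part with the lowest coordinates in 3 of the libraries, with 6 of 10 in control 2, 43 of 96 in H2O2 1 and 31 of 51 in H2O2 2. In control 1 that part held 8 and the part with the highest coordinates 9 of 23. Of the H2O2 peaks in the gene, 18.8% in H2O2 1 and 37.3% in H2O2 2 were shared with the replicate, against 28.0% and 68.1% over all arm ends. For control 1 and control 2 the shares were 17.4% and 40%, against 19.4% and 31.2%. Without control 1 the ratio of means was 7.35.

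lovit encodes a putative vesicular histamine transporter needed for signalling by photoreceptors and spans 434041 bp of the 3L end (3L:25236940-25670980). It held 15 summits in control 1, 7 in control 2, 80 in H2O2 1 and 35 in H2O2 2. The mean was 11 ± 5.66 (SD, n = 2) in control and 57.5 ± 31.8 (SD, n = 2) after H2O2, a ratio of 5.23 without overlap (exact permutation p = 0.333). Per Mb it had 34.6 and 16.1 summits in control, where the 3L end had 26.9 and 16.1. After H2O2 it had 184 and 80.6, where the 3L end had 97.2 and 40.3. lovit was therefore near the density of its arm end in control 2 and above it in the other libraries. Without control 1 the ratio of means was 8.21, and without H2O2 1 it was 3.18. The H2O2 replicates shared 30% of H2O2 1 peaks and 68.6% of H2O2 2 peaks there, against 28.0% and 68.1% over all arm ends. Of the 178 H2O2-only regions of the arm ends 17 lay in lovit and 8 in Myo81F. This class made up 13.2% of all arm-end regions and 7.04% of the regions on the 6 arms. Its share among the regions of each gene was not computed. The control replicates shared 1 peak, or 6.67% of control 1 peaks and 14.3% of control 2 peaks, against 19.4% and 31.2% over the arm ends. Of the control peaks in lovit, 60% in control 1 and 85.7% in control 2 overlapped an H2O2 peak, against 61.3% and 45.3% over all arm ends. The control 2 value is 6 of 7 peaks.

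Among the 10 coding genes of at least 100 kb, 7 had more summits in both H2O2 libraries than in either control library, and none had fewer. Over the 6 arms the order with more held for 31.3% of the genes of that length and for 3.19% of all coding genes. The order with fewer held for 8.43% of the genes of that length, so its absence among 10 genes says little. Besides Myo81F and lovit, the 7 genes with more were CG40006, Pzl, l(3)80Fg, Snap25 and Parp1. CG40006 had 11 and 8 summits in control and 48 and 16 after H2O2. Pzl, related to the Piezo mechanosensitive channels, had 5 and 4 in control and 34 and 15 after H2O2. Counts for l(3)80Fg were 3 and 4 in control and 20 and 9 after H2O2, and for Snap25 they were 2 and 3, then 11 and 7. Parp1, the poly(ADP-ribose) polymerase that senses DNA breaks, had 2 and 0 in control and 13 and 4 after H2O2. In the remaining long genes the groups overlapped: AGO3 had 7 and 2 then 16 and 4, CG40470 had 3 and 1 then 6 and 3, and Dbp80, a DEAD-box RNA helicase, had 2 and 2 then 3 and 2.

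**Figure D5:**
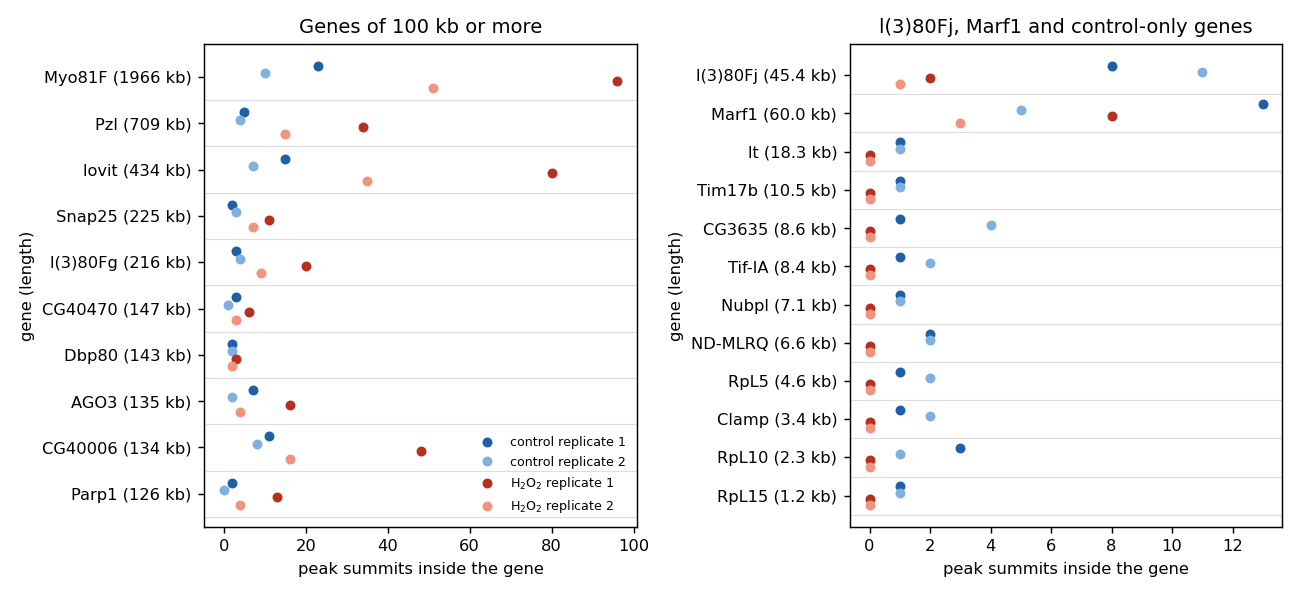
Number of peak summits inside each gene, 1 point per library, for the 10 coding genes of 100 kb or more (left) and for l(3)80Fj, Marf1 and the control-only genes (right), with gene length in kb. Myo81F held 23 and 10 control and 96 and 51 H2O2 summits, whereas l(3)80Fj held 8 and 11 control and 2 and 1 H2O2 summits.

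Over all 147 genes of the ends, both H2O2 counts lay above both control counts for 10 and below them for 12, against 3.19% and 3.79% of all coding genes. The 10 were the 7 long genes and 3 genes under 10 kb, tio (0 and 1 in control, 4 and 3 after H2O2), CG31693 and tplus3b. Of the 12 genes with the opposite order none reached 100 kb and 8 were under 10 kb, as were 99 of the 147 arm-end genes. The clearest by count was l(3)80Fj, 45356 bp long, with 8 and 11 summits in control and 2 and 1 after H2O2, a ratio of means of 0.158. CG12567 had 5 and 2 in control and 1 and 0 after H2O2. The other 10 had at least 1 summit in each control library and none in either H2O2 library, which is 6.80% of the arm-end genes against 3.16% of all coding genes. They were RpL5, RpL10, RpL15, lt, Clamp, Tif-IA, ND-MLRQ, Tim17b, Nubpl and CG3635. Clamp encodes a zinc finger protein that binds GA repeats and serves dosage compensation, Tif-IA an initiation factor of RNA polymerase I, and lt the Vps41 subunit of a lysosomal tethering complex. ND-MLRQ encodes a subunit of mitochondrial complex I and Tim17b a subunit of the inner membrane import channel. Most of these calls rest on 1 or 2 summits per control library.

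Only 2 genes, 1.36% against 2.26% of all coding genes, had summits in both H2O2 libraries and in no control library. They were CG31693, with 2 and 1 H2O2 summits, and tplus3b, with 1 and 1. Summits in all 4 libraries were found in 12 genes, 8.16% against 1.82% of all coding genes: Myo81F, lovit, CG40006, Pzl, l(3)80Fg, AGO3, Marf1, Snap25, l(3)80Fj, CG40470, CG41099 and Dbp80. A gene in this class needs only 1 summit per library, which long genes meet more easily. Marf1, an RNA-binding regulator of oocyte meiosis, had 13 and 5 summits in control and 8 and 3 after H2O2, with overlapping groups.

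A list of 22 known genes of pericentric heterochromatin was read in the same way. The gene table places 21 of them in the arm ends and tsh outside them. RpL5, RpL10, RpL15 and lt were control-only, AGO3, Dbp80, Snap25 and Pzl had summits in all 4 libraries, and none was H2O2-only. Over all coding genes these classes held 3.16%, 1.82% and 2.26%, so that a list of this length is too short to read anything from the absence of an H2O2-only gene. The 5 genes eIF4B, nrm, su(f), Alg-2 and stnB had no summit in any library. The other 8 had summits in 1 to 3 libraries. Besides Parp1 they were cta, a G protein alpha subunit (1 summit, in control 2), and Set1, a histone H3 lysine 4 methyltransferase (1 summit, in control 1). FASN3, a fatty acid synthase, had 2 summits in H2O2 1, and fog had 1 in control 1. nvd, an enzyme of ecdysone synthesis, had 1 summit in control 2 and 2 in H2O2 1. scro, a homeobox gene, had 1 in control 1 and 4 in H2O2 1, and vtd, the Rad21 subunit of cohesin, had 1 and 3 in control and 1 and 0 after H2O2. Of all 147 genes 88, or 59.9%, had no summit in any library, against 74.1% of all coding genes. This share differed by arm, since 58 of the 88 were among the 59 genes of the X end. At the 2L, 3L and 3R ends 32.4%, 35.1% and 35.7% of the genes had no summit.

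From library to library, spacing along the ends followed the counts. The median gap between neighbouring arm-end summits was 12411 bp in control 1, 19195 bp in control 2, 2650 bp in H2O2 1 and 7233 bp in H2O2 2. On the rest of the arms it was 2564, 4873, 2696.5 and 7982.5 bp. Within each H2O2 library the median gap in the ends was thus close to that elsewhere, whereas in each control library it was longer. The median gap does not follow density: H2O2 1 had 84.9 peaks per Mb in the ends and 35.7 in the rest. H2O2 2 had 36.5 and 25.7.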

How the data were processed

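The labels and the submitters' processing notes name Picard, MACS2 and build dm6. For versions, options and the background library, nothing is given in the sources used here. The deposited lists give each peak's interval, summit, score, fold enrichment (a ratio on a linear scale, over a background set by the peak caller), and p-value and q-value, both on the −log10 scale. For 17926 of 17927 peaks the deposited score equals 10 times the −log10 p-value cut to a whole number, and it was not used further. The lowest deposited −log10 p was 2.00 and the narrowest peak 200 bp. Depth is unknown, so intervals (Wilson, 95%) are given for shares only.

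Members and gene lists were chosen with earlier results of these data known, and the limits of the arm ends had been set by eye from the peak lists. Regions were formed by merging peaks of all lists that overlapped by 1 bp or more. Shares, counts and medians per library were compared by exact two-sided permutation of libraries. Gene bounds came from the RefSeq table of Release 6, which lists 13922 coding genes on the 6 arms without strand or exons; a gene held a summit when the summit lay inside its bounds. Parp was matched through its synonym as Parp1. Named were Myo81F and lovit, the 10 coding genes with most summits, the heterochromatin list, the 6 strongest regions of each class, the widest region of each end, and all members of classes of 5 or fewer. Other genes were named after their values had been seen. A planned description of the sequence at summits was not run, since no genome sequence was used here. Computation used Python 3.11.15, numpy 2.4.6, pandas 2.3.3 and scipy 1.17.1, and counting, merging and permutation were tested on simulated data. Alternatives were a stricter q, lists of equal length, other limits, other overlap rules, a replicate block and leaving out each library.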

Additional observations from a re-analysis of the deposited data

Results flagged for a closer look

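Peaks outside the 6 arms entered no comparison of the arm ends, and they were also more frequent in the H2O2 lists than in the control lists. They numbered 29 of the peaks in control 1 (0.668%), 8 in control 2 (0.267%), 101 in H2O2 1 (1.55%) and 34 in H2O2 2 (0.839%). The mean was 0.467% in control and 1.19% after H2O2.

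The width of peaks moved in opposite directions at the 3R end and on the rest of 3R. The median width at the end was 245 and 236 bp in control and 285 and 252 bp after H2O2, a difference of 28 bp. On the rest of 3R it was 340 and 358.5 bp in control and 303 and 273.5 bp after H2O2, a difference of -61 bp. Every H2O2 library lay above both control libraries at the end and below both on the rest, and the difference between these contrasts was not tested. The control medians at the 3R end rest on 54 and 27 peaks. The other autosomal ends showed no such rise. At the 2L end the median was 322 and 327 bp in control and 318 and 285 bp after H2O2, a difference of -23 bp. At the 3L end the groups overlapped, at 258 and 295.5 bp in control and 292 and 253 bp after H2O2.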

How the results depend on the processing

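The share of peaks in the arm ends stayed higher in H2O2 under every alternative run, with a difference of 5.09 to 10.1 percentage points on leaving out 1 library. With libraries paired by replicate number as a block the difference was 7.61 points (exact sign flips, p = 0.5, the smallest 2 pairs allow), but the labels do not say that the numbers pair libraries. Of 156 alternative values 123 were unchanged by the rule used, 25 moved and 8 changed sign. Differences between groups were judged by sign alone, and only gene counts, region counts and replicate sharing by size. Unchanged differences could therefore vary in size. At q of 1e-05 or less the share differed by 27.0 points and the median width by -110.25 bp, against 7.61 points and -13.75 bp for all peaks. Differences below are H2O2 minus control.

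At q of 1e-05 or less the difference in median −log10 q became -0.52, and 24 H2O2-only, 5 control-only and 3 all-library regions and 2 all-library genes were left, since fewer peaks were counted. In lists of equal length (2988 peaks) 100 H2O2-only and 16 all-library regions were found. With the limits 1 Mb nearer the tip the median −log10 q differed by -0.14 and the share at q of 1e-05 or less by -5.12 points, with 13 H2O2-only and 24 control-only genes, 63 control-only regions and a mean control sharing of 40.4%. With the limits 0.5 Mb nearer the centromere the median width differed by 11.5 bp, with 0 H2O2-only and 3 control-only genes. With summits within 100 bp the control sharing was 12.7% and 13 regions were in all libraries, and with a reciprocal overlap of 50% the control sharing was 16.5%.

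Leaving out each library in turn gave 194 to 854 H2O2-only regions (322 without H2O2 1, 854 without H2O2 2), 18 to 110 control-only regions (93 without control 1, 110 without control 2), 28 to 90 regions of all libraries (42 without control 1, 90 without control 2), 2 to 8 H2O2-only genes (5 without control 1, 4 without control 2, 8 without H2O2 2), 11 to 22 control-only genes (22 without control 1) and 13 to 15 genes with summits in every library. A class then asks for fewer libraries, so it can only take in more. The width difference ran from -32.5 to 5 bp (5 without control 2, 4.25 without H2O2 2), that of the median −log10 q from -0.12 (without control 2) to 0.50, and that of the share at q of 1e-05 or less from -0.61 (without H2O2 1) to 5.05 points. Replicate sharing needs both libraries of a group and has no such value. In the 3 measures that changed sign, width and both measures of q, the groups overlapped with the limits and lists used throughout. With the limits 1 Mb nearer the tip the share at q of 1e-05 or less did separate the groups. Both H2O2 values then lay below both control values, so the direction of this measure depended on the limits. Depth, which could set the length of each list, is unknown.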

Other observations

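The end of arm 2R next to its centromere lies outside the intervals studied here. Peaks with a summit up to 5.7 Mb there were 5.75% of the arm peaks in control 1 and 4.25% in control 2, and 13.1% in H2O2 1 and 7.61% in H2O2 2. Both H2O2 values lay above both control values, in the order seen at the other arm ends.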
